A study of Mus musculus with 8 samples.

Results

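Interferon-stimulated genes are the genes that cells switch on when interferon binds its receptors. A list of 41 of them, drawn from the type I and type II interferon responses and without chemokines, was matched by symbol to the deposited expression table. All 41 had a row among the 22504 genes of the table, and 39 came to an FPKM of 0.5 or more in 2 or more of the 8 samples, as did 12125 genes in all. FPKM counts sequenced fragments per length of gene and per total mapped in a sample. The 2 members under this floor were Oas1g, whose second highest FPKM was 0.274, and Oas3, whose second highest was 0.180, and the member nearest above it was Oas2, at 0.565. Oas2 passed with 1 sample of the SALI group and 1 of C 12w.

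RNA was sequenced from 8 samples of Fah-/- mice on the 129S4 background, which lack the last enzyme of tyrosine breakdown. The drug NTBC blocks an earlier step of that pathway and keeps such mice healthy, and all mice were first held on 7.5 mg/L of it in the drinking water. The 3 C 8w samples (1a, 2a and 3a) were labelled liver and came from 8 weeks of moderate chronic liver injury (MCLI) on 2.5% of the NTBC dose. The 3 C 8w + A 4w samples (C096, C097 and C098), called the SALI group here and also labelled liver, came from 8 weeks of MCLI followed by 4 weeks of severe acute liver injury (SALI), in which NTBC was removed. The 2 C 12w samples (2e and 3e) came from 12 weeks of MCLI and were labelled tumor. All 3 groups shared the Fah deletion and at least 8 weeks of MCLI; no uninjured sample was used here. The labels do not say whether samples of a group came from different litters or days, so the p-values measure the spread between these samples only.

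Type I interferons bind Ifnar1 and Ifnar2 and act through Jak1 and Tyk2, which lead to a complex holding Stat2 and Irf9 that binds the interferon-stimulated response element (ISRE). Type II interferon, the product of Ifng, binds Ifngr1 and Ifngr2 and acts through the gamma-activated sequence (GAS), and Irf1 and the large GTPases of the Gbp and Irg families are classic targets. In the liver the resident macrophages, the Kupffer cells, and the hepatocytes both respond to interferon.

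Promoter sequence is shown for 8 members, so that the response elements can be seen in their place. The values of all but Oas1a and Oas1g are taken up below. Each line holds the 150 bases before the RefSeq transcription start in GRCm38.p6, 5′ to 3′ on the strand of the gene, with 2 kinds of match in capitals. The ISRE core is GAAA, any 2 bases and GAAA again (TTTC, 2 bases and TTTC on the other strand), and the GAS is TTC, any 3 bases and GAA, which reads alike on both strands. Matches that overlap run together. Isg15 (chr4:156200819-156200968, minus strand) and Ifit1 (chr19:34640739-34640888, plus strand) stand for the type I effectors. Bst2 (chr8:71537473-71537622, minus strand) was called in both comparisons of the SALI group, and Irf1 (chr11:53769864-53770013, plus strand) holds a GAS alone. Igtp (chr11:58199406-58199555, plus strand) and Irgm1 (chr11:48871421-48871570, minus strand) are GTPase genes of chromosome 11 whose values differed in course. Oas1a (chr5:120907526-120907675, minus strand) and Oas1g (chr5:120887614-120887763, minus strand) are close copies on either side of the floor.

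Isg15: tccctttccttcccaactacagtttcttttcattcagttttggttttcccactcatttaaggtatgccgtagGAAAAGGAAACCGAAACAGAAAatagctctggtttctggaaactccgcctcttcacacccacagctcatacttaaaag
Ifit1: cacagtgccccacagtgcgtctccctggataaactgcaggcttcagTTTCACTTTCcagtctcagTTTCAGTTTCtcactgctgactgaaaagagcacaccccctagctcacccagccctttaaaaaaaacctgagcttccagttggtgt
Bst2: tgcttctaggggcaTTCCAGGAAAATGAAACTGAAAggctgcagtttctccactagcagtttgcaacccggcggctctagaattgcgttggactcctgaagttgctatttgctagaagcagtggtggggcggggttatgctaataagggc
Irf1: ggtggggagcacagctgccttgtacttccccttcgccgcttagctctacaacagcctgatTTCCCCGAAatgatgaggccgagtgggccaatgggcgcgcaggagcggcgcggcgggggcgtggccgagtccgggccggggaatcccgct
Igtp: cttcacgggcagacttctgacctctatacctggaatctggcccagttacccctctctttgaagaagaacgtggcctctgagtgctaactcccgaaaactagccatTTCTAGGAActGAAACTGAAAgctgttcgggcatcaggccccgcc
Irgm1: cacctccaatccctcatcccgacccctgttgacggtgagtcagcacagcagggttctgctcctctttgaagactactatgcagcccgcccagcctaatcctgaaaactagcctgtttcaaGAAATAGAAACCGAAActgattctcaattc
Oas1a: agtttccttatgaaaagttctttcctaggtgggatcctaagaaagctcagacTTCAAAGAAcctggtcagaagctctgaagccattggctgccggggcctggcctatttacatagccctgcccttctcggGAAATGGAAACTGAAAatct
Oas1g: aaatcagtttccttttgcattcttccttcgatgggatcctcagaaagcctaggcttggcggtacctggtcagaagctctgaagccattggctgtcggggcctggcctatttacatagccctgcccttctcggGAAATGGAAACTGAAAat

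The ISRE core stood 3 times in a row in Isg15, each match overlapping the next, and 2 times in Ifit1 with a gap between them. In Bst2 and in Igtp a GAS lay at or next to the ISRE cores. Windows of 250 bases before to 50 after the start were found for 29 of the 41 members, 34 windows in all. An ISRE core stood in 19 of the 34 windows (55.9%), against 3.44% of all 32851 windows, and a GAS in 8 (23.5%), against 8.3% of all. No window was matched for Iigp1, Zbp1, Rtp4, Mx1, Parp9, Usp18, Mx2, Parp14, Gbp6, Dhx58, Ifi27 and Oas2. A match of letters is a description of the sequence and does not show binding.

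**Figure D1:**
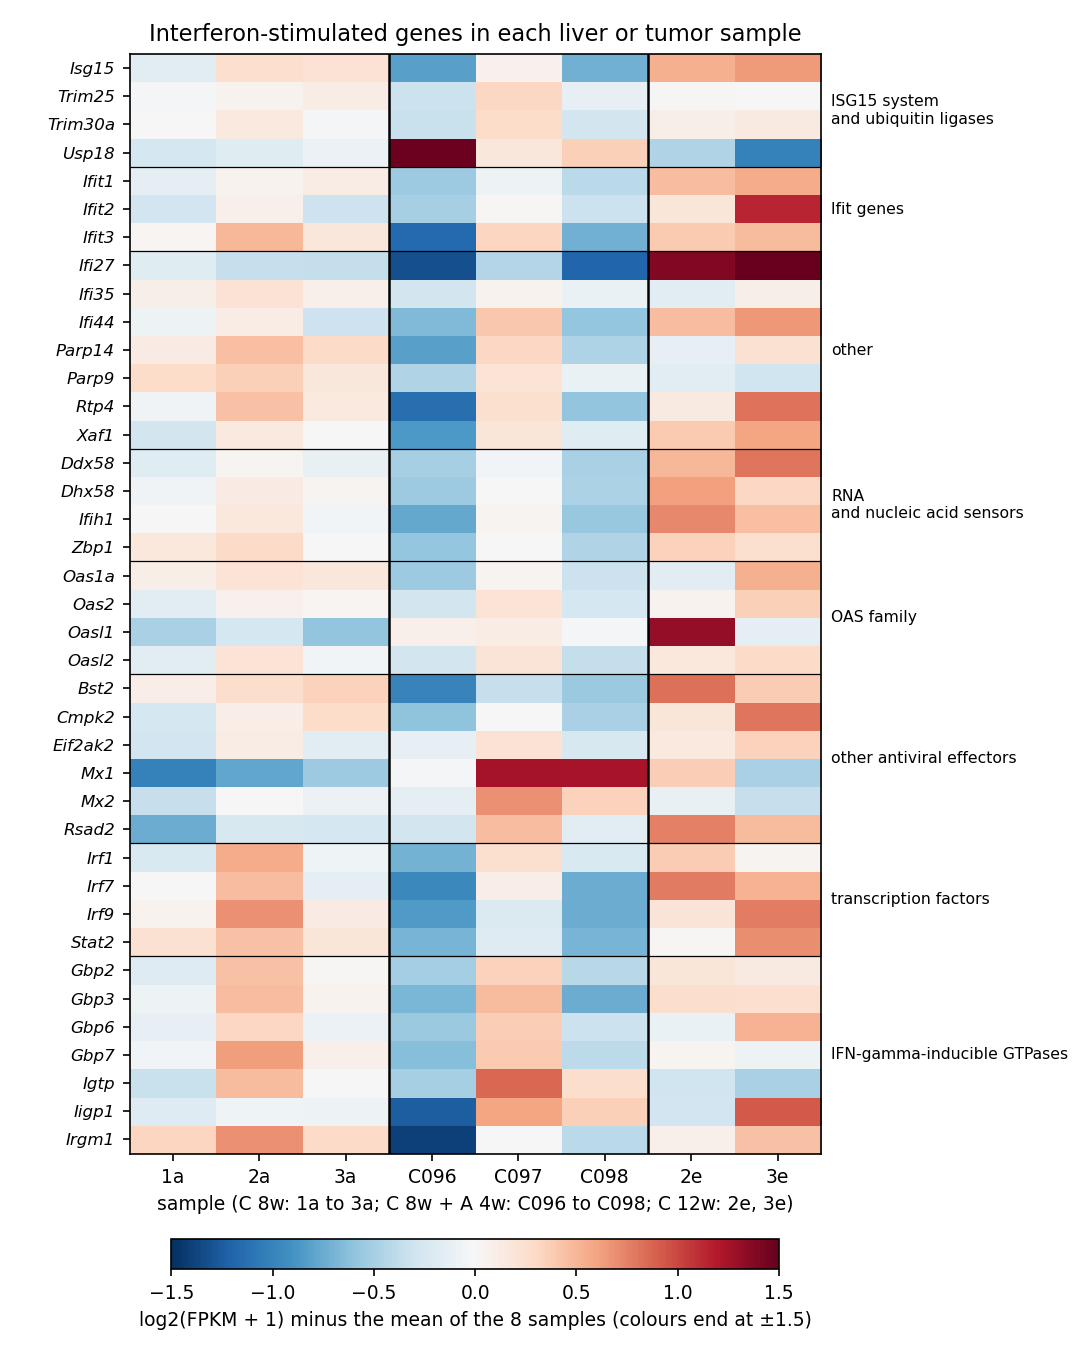
Each row is 1 of the 39 interferon-stimulated genes past the floor, ordered by role, and each column is 1 sample, with black lines between the 3 groups. Colour is log2(FPKM + 1) minus the mean of that gene over the 8 samples, red above and blue below the mean. C096 and C098 are blue for most genes, C097 beside them is not, and Usp18 and Mx1 are coloured against the other genes.

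The levels of the members spanned a wide range in these samples. Iigp1, a GTPase that attacks the vacuoles of intracellular parasites, had the highest median FPKM over the 8 samples at 90.9. Bst2, or tetherin, which holds budding viruses at the cell surface, followed at 88.4, and Igtp, another GTPase, at 32.4. The lowest median among genes past the floor was that of Oas2, and 7 of the 39 genes had a median of at least 10.7.

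Depth is unknown, since FPKM holds no read numbers, and each sample's FPKM added up to 324735 to 399342 over all genes. The codes of C 8w and C 12w form a series apart from those of the SALI group, and code series and group cannot be told apart. Some genes that every cell uses were listed near 0 in all 5 samples of the first series and not in the second, for example Gapdh, at most 0.247 against at least 68.2. The albumin gene Alb was listed at 0 in those 5 samples, while the other 10 hepatocyte markers were present in all 8. Fah itself lay at 13.5 to 16.8 in those 5 samples and at 5.02 to 6.36 in the SALI group, as an FPKM over the whole gene. The protocol text of the labels speaks of retinas, against the tissue labels of liver and tumor. In tissue pieces such as these, fewer cells of a type and less RNA per cell cannot be told apart.

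Interferon genes themselves were listed at or near 0. Of the 10 interferon genes listed, 0 passed the floor, and Ifna1, Ifna2, Ifna4, Ifna5, Ifnb1, Ifnl2 and Ifnl3 were listed at 0 in all 8 samples. The FPKM of all 10 together was at most 0.256 in any sample. Since the files hold no read numbers and list at or near 0 also genes that liver cells plainly use, such as Alb and Gapdh above, these zeros do not show that the genes were silent.

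The first comparison asks what 4 more weeks of moderate injury, with tumor as the tissue, went with. At 12 weeks 3 of the 39 genes were higher than at 8 weeks and 0 were lower. Over all 12125 genes tested, 18.6% were called, 12.3% as higher and 6.34% as lower, so the 7.69% of the members called was below the share of all genes. A call is a Benjamini-Hochberg adjusted p under 0.05 over all genes tested in limma, on log2(FPKM + 1), a scale that understates the change of low genes. At an unadjusted p under 0.05 there were 9, of which Parp9 was the lower gene. The share of all genes at this unadjusted threshold was not computed, here or for the smaller sets below. The 9 can thus not be set against the shares of all genes. The genes called were Ifi27, Rsad2 and Ddx58.

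Ifi27, a small protein of the mitochondria and nuclear membrane, had an FPKM of 10.2, 9.03 and 8.93 in C 8w, of 4.09, 8.42 and 4.56 after SALI, and of 32.3 and 68.7 in C 12w. Both C 12w samples lay above the other 6, and 3e was the higher of them. Its log2 fold change from C 8w to C 12w was 2.21 (SE 0.34, adjusted p = 0.0046). Rsad2, or viperin, which makes a chain-ending nucleotide that stops viral RNA synthesis, had 0.787, 1.54 and 1.5 in C 8w, 1.49, 3.12 and 1.69 after SALI, and 4.07 and 3.18 in C 12w. Its C 12w values lay above both other groups, though C097 came close to the lower of them. The log2 fold change was 1.04 (SE 0.25, adjusted p = 0.025). Ddx58, which encodes the RNA sensor RIG-I, had 4.16, 5.01 and 4.42 in C 8w, 3.13, 4.68 and 3.18 after SALI, and 7.26 and 9.23 in C 12w. Again both C 12w samples lay above all others, with a log2 fold change of 0.74 (SE 0.17, adjusted p = 0.024). The call of Rsad2 was lost when any single C 8w sample or 2e was left out (adjusted p up to 0.082), and that of Ddx58 when any single C 8w sample or 3e was left out (adjusted p up to 0.096). Ifi27 kept its call without any 1 of the 8 samples.

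The median log2 fold change of the 39 genes from C 8w to C 12w was 0.22, against 0.12 for all genes tested. Groups did not overlap for 17 members, or 43.6% of them, against 53.8% of all genes. Of these, 15 had C 12w above (38.5%, against 35.0%) and 2 below (5.13%, against 18.8%). The 2 below were Parp9 and Usp18. With median-ratio scaling of the samples the median of all genes moved to 0.01 and that of the members to 0.15, and 1 member was then called lower beside 3 higher, against 9.84% of all genes lower and 9.2% higher. Of the 7 GTPases and the 4 transcription factors, 0 were called in limma and 0 had an unadjusted p under 0.05. The 5 cholangiocyte markers summed to an FPKM of 339 in 3e, against 28.2 in 2e and 9.50 to 15.2 in C 8w, and Spp1 alone, at 311, made up most of the sum in 3e. Of the 4 markers past the floor Spp1, Sox9 and Epcam were called as higher at 12 weeks and Krt19 was not called. Of the 6 endothelial markers 3 were called lower, with log2 fold changes of -1.52 in Clec4g, -0.83 in Stab2 and -0.57 in Kdr. Col1a1 of the 5 stellate cell markers (1.6) and Ccr2 of the 13 macrophage markers past the floor (0.69) were called higher. Cyp2e1 of the 11 hepatocyte markers was called lower (-2.77). The part of these genes' cells in the members' values was not tested. Leaving out 1a, 2a or 3a left 1 call in each case, where 7.3%, 9.28% and 7.69% of all genes were called. Leaving out C096 gave 4 higher and 1 lower (17.9% of all genes called), and leaving out C097 gave 6 higher (18.1%), with Ifih1, Ifi44 and Ifit1 as the added genes of the latter, since all groups share the estimate of the spread.

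The next comparison asks what 4 weeks of SALI after MCLI went with, set against the MCLI it followed. After SALI 5 of the 39 genes were lower than in C 8w and 1 was higher, while 36.8% of all genes tested were called, 12.6% as lower and 24.2% as higher. The 12.8% of members called lower was thus close to the share of all genes, and the 2.56% called higher was far under it. The median log2 fold change was -0.32 for the members and 0.12 for all genes. Median-ratio scaling moved the median of all genes to about 0 (-0.00) and gave 13 members lower and 1 higher, and quantile normalization gave 16 and 1. The members called lower were then 33.3% and 41.0%, against 18.7% and 20.8% of all genes, so the closeness to the share of all genes did not hold under these scalings. Groups did not overlap for 11 members (28.2%, against 59.6% of all genes), 8 with the SALI group below (20.5%, against 21.1%) and 3 above (7.69%, against 38.5%). Of the 6 endothelial markers 3 were lower after SALI than in C 8w (Stab2, Clec4g and Kdr) and 1 was higher (Lyve1), and their summed FPKM, to which Clec4g gave the most in C 8w, was 41.5 to 45.5 in C 8w, 19.5 to 36.9 after SALI and 23.4 to 28.2 in C 12w. Of the 4 cholangiocyte markers past the floor Epcam was higher after SALI, and the list summed to 26.3 to 32.7 there, above every C 8w sample. The part of these cells in the members' differences was not tested.

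Among the 4 transcription factors, both Stat2 and Irf9 of the type I complex were lower. Stat2 had an FPKM of 11.9, 13.9 and 11.4 in C 8w, 5.77, 8.6 and 5.78 after SALI, and 10.1 and 16.8 in C 12w. The 3 SALI samples lay below all 5 others, and the log2 fold change against C 8w was -0.81 (SE 0.21, adjusted p = 0.016). Irf9, which carries the DNA contact of that complex, had 3.77, 6.40 and 4.02 in C 8w, 1.55, 2.95 and 1.76 after SALI, and 4.24 and 6.81 in C 12w. It showed the same order without overlap, with a log2 fold change of -0.89 (SE 0.24, adjusted p = 0.021). Irf1, the factor of the type II response whose promoter is printed above, had 6.80, 12.5 and 7.78, then 4.60, 9.82 and 6.83, and in C 12w 10.9 and 8.43. Its groups overlapped in every comparison and it was not called. Irf7, which amplifies type I interferon production, had 2.32, 3.62 and 2.04 in C 8w and 0.712, 2.57 and 0.991 after SALI. C097 lay within the range of C 8w, and Irf7 was not called here (adjusted p = 0.10).

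Of the 6 other antiviral effectors, Bst2 was lower and Mx1 was higher. Bst2 had 83.4, 93.4 and 98.6 in C 8w, 38.1, 60.7 and 52.4 after SALI, and 138 and 101 in C 12w. All 3 groups were apart, the SALI group lowest and C 12w highest, and the log2 fold change from C 8w was -0.87 (SE 0.19, adjusted p = 0.0089). Bst2 kept its call in all 16 other fits run for each of its comparisons. Bst2 also marks plasmacytoid dendritic cells, and of the other 4 markers listed for them Siglech and Ccr9 stayed under the floor, Tcf4, at most 1.23, was not called, and Cox6a2, highest in C096 at 3.51, was called higher after SALI than in C 8w. Their part in the values of Bst2 was not tested. Mx1, a GTPase that blocks influenza-like viruses in the nucleus, ran the other way, with 0.563, 0.836 and 1.16 in C 8w, 2.11, 6.51 and 6.46 after SALI, and 3.10 and 1.25 in C 12w. Every SALI sample lay above every C 8w sample, and the log2 fold change was 1.60 (SE 0.36, adjusted p = 0.010). Mx2, its cytoplasmic relative, had 1.51, 2.18 and 1.98 in C 8w, 1.89, 4.11 and 3.05 after SALI, and 1.96 and 1.5 in C 12w. The groups of Mx2 overlapped and it was not called. Mx1 and Mx2 share 4.37% and 4.38% of their 50-base transcript windows with other genes, each mostly with the other.

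Irgm1, a regulator that keeps other GTPases inactive on the cell's own membranes, was the only called member of the 7 GTPases. It had 19.7, 25.7 and 19.3 in C 8w, 5.31, 15.7 and 11.5 after SALI, and 16.5 and 21.6 in C 12w, with every SALI sample below the other 5. The log2 fold change was -1.03 (SE 0.32, adjusted p = 0.036). Igtp had 28.3, 50.3 and 35.9 in C 8w, 25.2, 66.1 and 43.3 after SALI, and 28.9 and 25.4 in C 12w. Iigp1 had 83.2, 91.0 and 90.7 in C 8w, 39.8, 144 and 122 after SALI, and 77.7 and 181 in C 12w. For Igtp and Iigp1 the 3 samples after SALI ran from the lowest of all 8 to above every C 8w sample. Gbp2, a guanylate-binding protein that coats pathogens, had 1.10, 2.26 and 1.44 in C 8w, 0.693, 2.07 and 0.802 after SALI, and 1.72 and 1.63 in C 12w. C097 lay inside the range of C 8w for Gbp2, and C096 and C098 below it.

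Zbp1, a sensor of left-handed nucleic acids that can start necroptosis, was the only sensor called against C 8w. It had 0.900, 1.08 and 0.720 in C 8w, 0.137, 0.712 and 0.251 after SALI, and 1.16 and 1.01 in C 12w. C097 lay just under the lowest C 8w sample, and the log2 fold change was -0.49 (SE 0.16, adjusted p = 0.043). For Irgm1, Irf9, Stat2 and Zbp1 leaving out 2a or C098 ended the call, with adjusted p up to 0.11 for Irgm1, 0.073 for Irf9, 0.062 for Stat2 and 0.14 for Zbp1. Leaving out C096 also ended the calls of Irf9, Stat2 and Zbp1, leaving out 1a those of Irgm1, Stat2 and Zbp1, and leaving out 3a those of Irgm1 and Zbp1. The log2 fold changes kept their sign in these fits, that of Irgm1 being -1.13 without C098 and that of Stat2 -0.84 without 1a. Irgm1 kept its call without C096, at a smaller log2 fold change of -0.63 (adjusted p = 0.050). Without 2a 1 member was higher and 1 lower (17.5% and 8.66% of all genes), and without C098 it was again 1 and 1 (19.8% and 9.14%). Without C096 2 were higher and 2 lower (19.0% and 9.23%), and without 1a 1 was higher and 2 lower (14.2% and 7.79%). The excess of lower over higher calls was thus gone without 2a, C096 or C098, and it grew without C097.

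**Figure D2:**
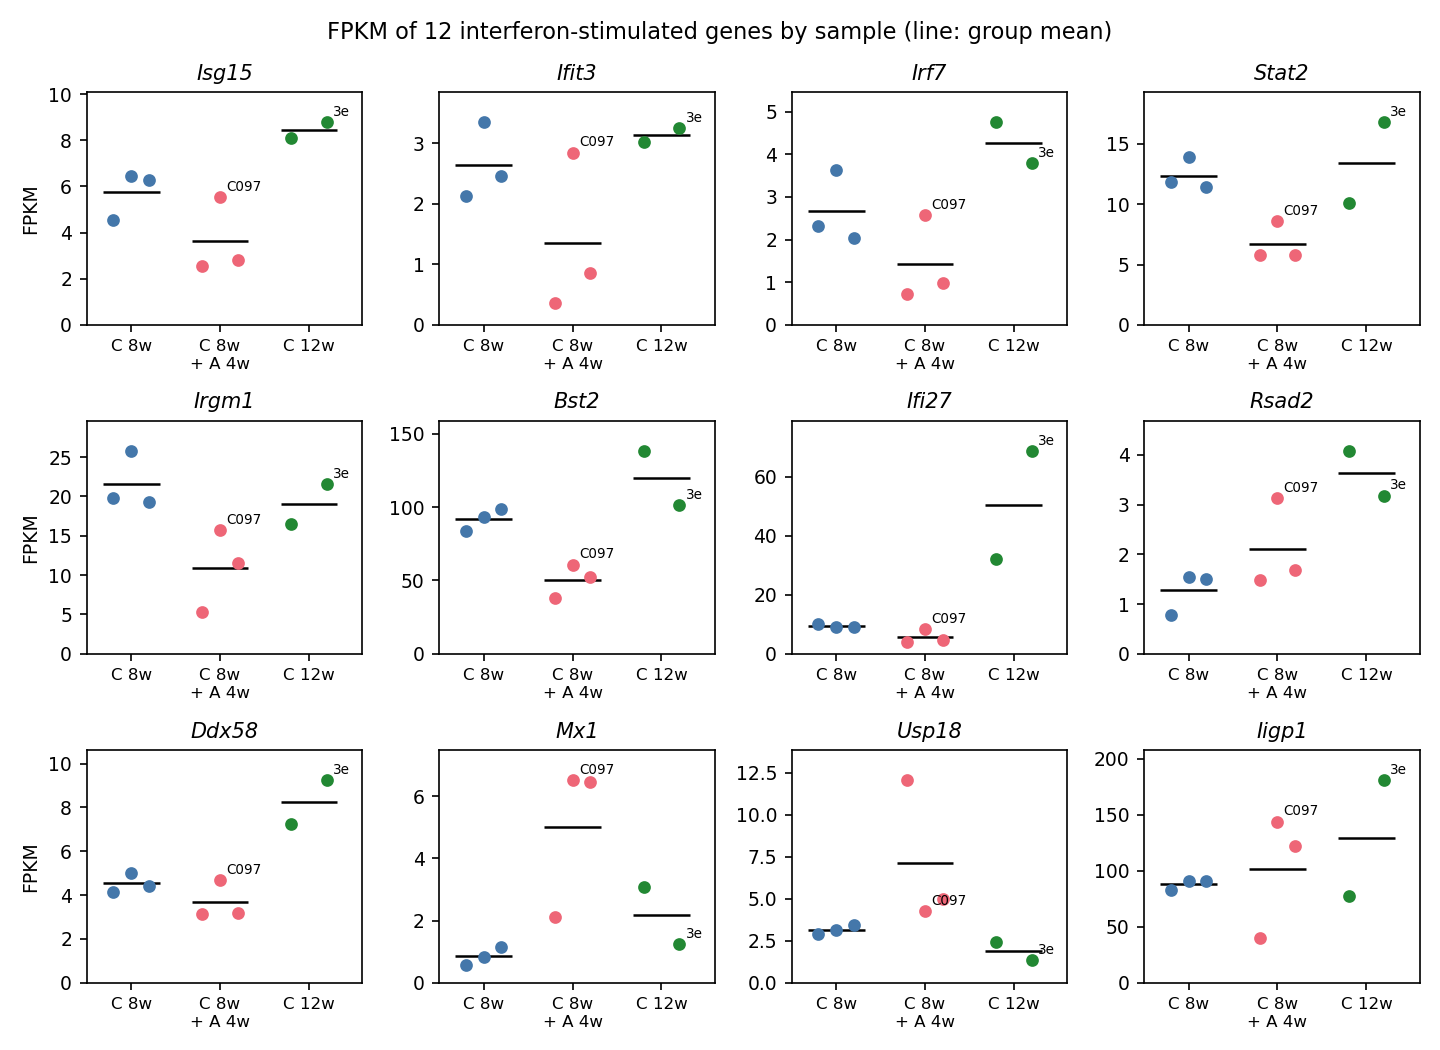
Points are single samples of 12 of the genes by group, in FPKM on axes that start at 0, and the line is the group mean. C097 and 3e are named. For Isg15, Ifit3 and Irf7 C097 sits near the C 8w samples while the other 2 samples of its group sit below them, and for Usp18 the order within C 8w + A 4w (SALI group) is turned over.

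C097 stood apart from C096 and C098 in nearly every member. Within the SALI group it had the highest FPKM for 38 of the 39 genes (97.4%), against 49.1% of all genes tested, and C096 had the lowest for 34 (87.2%, against 39.0%). The exception was Usp18, which encodes the protease that strips Isg15 from its targets and also blocks the type I receptor. Usp18 had 2.90, 3.14 and 3.42 in C 8w, 12.0, 4.28 and 5.0 after SALI, and 2.45 and 1.33 in C 12w, so C096 was highest of all and C097 lowest of its group. Over the 39 genes the log2(FPKM + 1) of C097 minus the mean of C096 and C098 had a median of 0.58, against 0.08 over all genes. The range of log2(FPKM + 1) within the SALI group was at least 1 for 13 of the 39 members (33.3%), against 3.98% of all genes. In C 8w it was so for 0 members, against 0.957% of all genes, and in C 12w for 3 (7.69%, against 6.8%). In C 8w, 2a held the highest value for 32 of the 39 genes (82.1%, against 39.5%). In C 12w, 3e was above 2e for 22 genes (56.4%, against 61.2%).

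The widest gaps in FPKM were those of Ifi44, 5.82-fold higher in C097 than in the mean of the other 2 samples, and of Gbp3, 5.81-fold higher. Ifit3, a partner of the RNA-binding Ifit1, had 2.13, 3.35 and 2.45 in C 8w, 0.365, 2.85 and 0.860 after SALI, and 3.03 and 3.26 in C 12w. C096 and C098 lay below every sample of the other groups and C097 among them, and Ifit3 was not called in any comparison with all samples. Its values are uncertain, since 51.2% of its transcript windows also occur in another gene, mostly Ifit3b. Oas2, which makes the messenger that activates RNase L, had 0.214, 0.418 and 0.387 in C 8w, 0.126, 0.565 and 0.136 after SALI, and 0.416 and 0.738 in C 12w. Oasl2, of the same family, had 0.526, 0.981 and 0.663, then 0.412, 0.959 and 0.337, and in C 12w 0.907 and 1.08. In both genes C097 was far above the other 2 samples of its group.

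The macrophage markers moved with C097 as well. Their summed FPKM, over 14 genes of which 13 passed the floor, was 692 in C097 against 267 in C096 and 220 in C098, and it was 276 to 327 in C 8w and 240 to 280 in C 12w. The Kupffer cell markers Clec4f and Timd4 had 59.1 and 12.1 in C097, 25.1 and 2.74 in C096 and 19.5 and 2.34 in C098. Marco was at 48.8, 16.5 and 1.44 in C097, C096 and C098. None of the macrophage markers was at 0 in all samples. Endothelial markers summed to 36.9 in C097, 19.5 in C096 and 31.2 in C098, and the T and NK cell markers to 2.46, 1.14 and 1.11, with 2 of 14 of the latter past the floor. The part of these cells in the level of the interferon-stimulated genes was not tested. On the centred log2(FPKM + 1) scale the means of the members in 1a, 2a and 3a were -0.13, 0.20 and -0.01, beside macrophage means of -0.19, 0.14 and -0.10. In C096, C097 and C098 the members had -0.57, 0.20 and -0.32, beside -0.13, 1.11 and -0.53, and in 2e and 3e they had 0.26 and 0.36, beside 0.02 and -0.32.

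**Figure D3:**
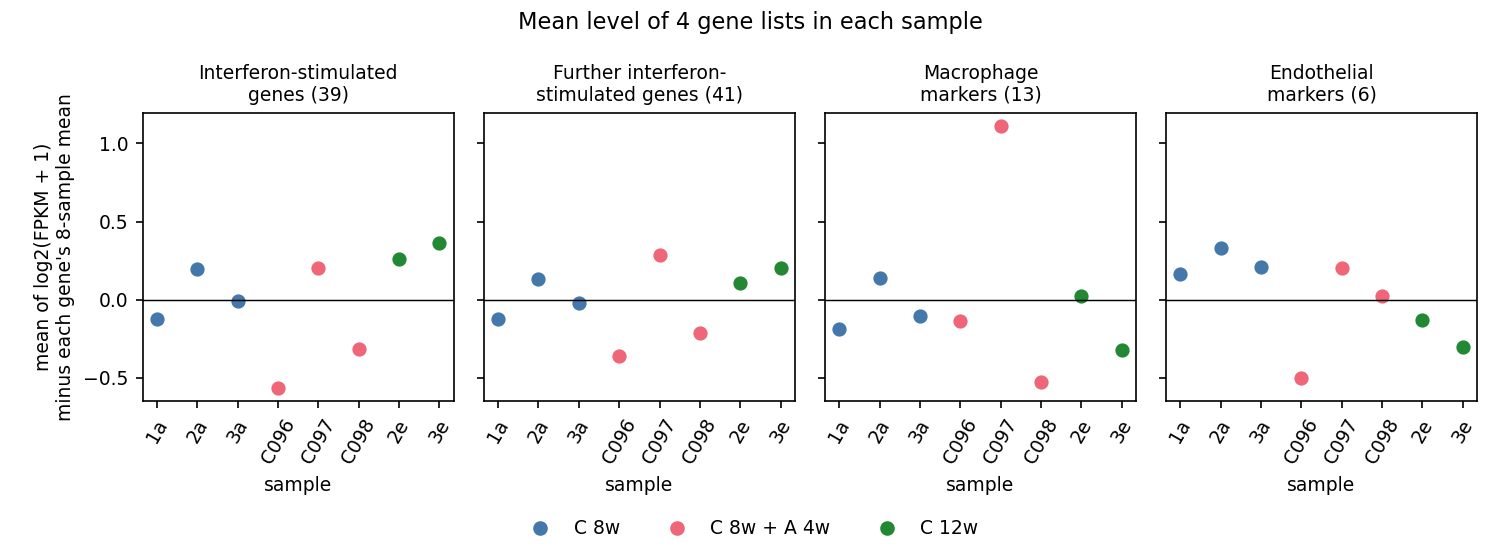
Each point is the mean over a gene list of log2(FPKM + 1) minus each gene's mean over the 8 samples, for 1 sample, coloured by group. For the 39 interferon-stimulated genes the means run from -0.57 in C096 to 0.36 in 3e, with C097 at 0.20, and for the macrophage markers C097 stands at 1.11 with no other sample above 0.14.

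Without C097, with C096 and C098 standing for the group, 19 of the 39 genes were lower than in C 8w and 2 were higher, where 12.7% of all genes were lower and 19.8% higher. All 6 calls of the full comparison were among the 21. Isg15 was then lower with a log2 fold change of -0.86 (SE 0.15, adjusted p = 0.0062) and Irf7 with -0.96 (SE 0.20, adjusted p = 0.011), Ifit3 with -1.18 (SE 0.19, adjusted p = 0.0040) and Gbp3 with -0.87 (SE 0.17, adjusted p = 0.0085). Usp18 was the second gene called higher, at 1.09 (SE 0.32, adjusted p = 0.038). The median of the members was -0.54. C097 carries the same labels as the other 2 samples, and it was left out because it stood apart in these same genes, so these counts describe C096 and C098 and are no test of the group.

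**Figure D4:**
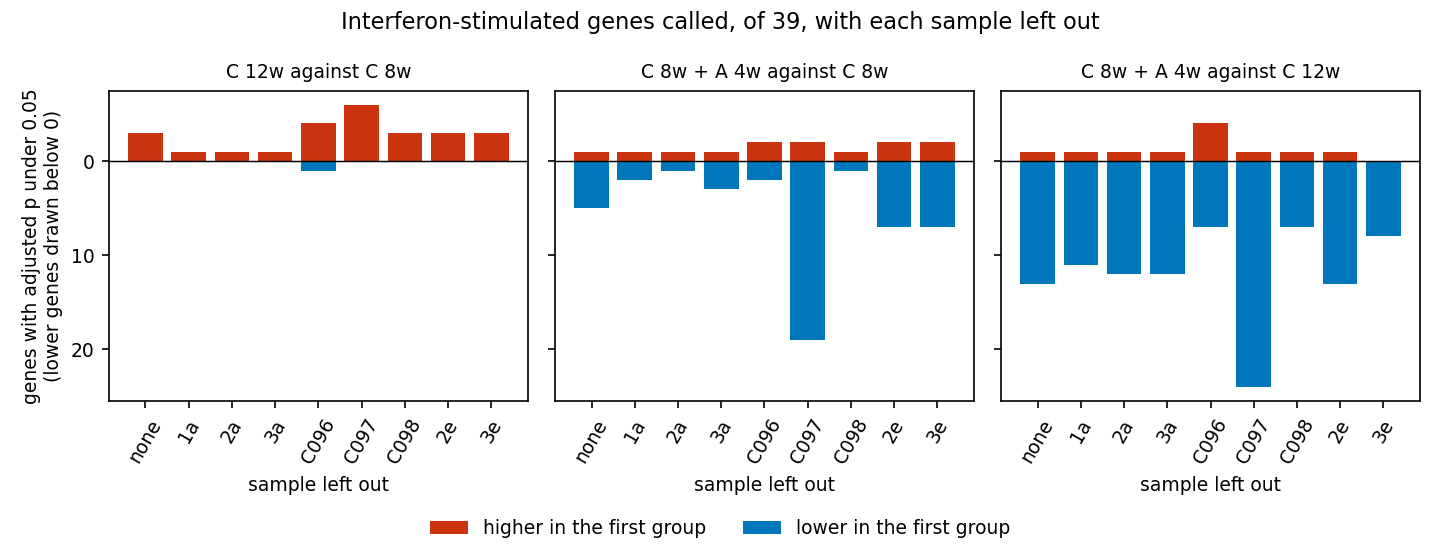
Bars give the number of the 39 genes called at an adjusted p under 0.05 in limma, higher in the first named group above 0 and lower below it, with all samples (none) and with each sample left out. Without C097 the genes called lower number 19 against C 8w and 24 against C 12w, from 5 and 13 with all samples.

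The last comparison sets the 2 courses of 12 weeks side by side, SALI after MCLI against MCLI throughout. The SALI samples were labelled liver and the C 12w samples tumor, and their codes form separate series. Course, tissue label and code series cannot be told apart in any value of this comparison. In the SALI group 13 of the 39 genes were lower than in C 12w and 1 was higher. Over all genes tested 32.6% were called, 15.4% as lower and 17.2% as higher, so 33.3% of the members were called lower against 15.4% of all genes. Without C096 the counts were 4 higher and 7 lower (14.3% and 12.1% of all genes), without C098 1 and 7 (13.7% and 10.8%), and without 3e 0 and 8 (16.9% and 12.9%). The median log2 fold change of the members was -0.57, and that of all genes was -0.00. Groups did not overlap for 19 members (48.7%, against 52.0% of all genes), 18 with the SALI group below (46.2%, against 24.4%) and 1 above (2.56%, against 27.6%). This comparison shares its samples with both others, so the 3 sets of values are not independent. Markers of other cells also differed from C 12w. Of the 11 hepatocyte markers 3 were higher and 4 lower. Of the 13 macrophage markers past the floor Ccr2 was lower (log2 fold change -0.79). Of the 5 stellate cell markers Col1a1 was lower (-2.23) and Lrat higher (1.32). Of the 6 endothelial markers and the 4 cholangiocyte markers past the floor 0 were called. What these cells gave to the members' values was not tested.

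All 4 nucleic acid sensors were lower, with log2 fold changes from -1.01 to -0.63, and Ddx58, Ifih1 and Dhx58 kept their calls without any 1 of the 8 samples. The call of Zbp1 was lost without 1a, C096, C098, 2e or 3e, with adjusted p up to 0.084. Ddx58 had the values given above, with the SALI group at most 4.68 and C 12w at least 7.26, and a log2 fold change of -1.0 (SE 0.17, adjusted p = 0.0035). Ifih1, which encodes the long-RNA sensor MDA5, had a mean FPKM of 2.28 ± 1.01 (SD, n = 3) after SALI and 5.46 ± 0.836 (n = 2) in C 12w, and fell by 1.01 on the log2 scale. Dhx58, their regulator LGP2, had 0.468 ± 0.314 and 1.55 ± 0.385. For each of the 4 sensors the groups did not overlap, although C097 was the nearest of its group to C 12w in every case.

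Among the transcription factors Irf7 was lower, with 4.75 and 3.79 in C 12w against at most 2.57 (log2 fold change -1.19, SE 0.31, adjusted p = 0.020). Irf9 was lower by the same test (log2 fold change -1.08, SE 0.27, adjusted p = 0.017), as was Stat2 (-0.89, SE 0.23, adjusted p = 0.020). All 3 calls were lost without C096 or C098, that of Irf7 also without 2e, and those of Irf9 and Stat2 also without 3e, with adjusted p up to 0.065 for Irf7, 0.088 for Irf9 and 0.10 for Stat2. Without 3e the log2 fold change of Stat2 was -0.54. Irf1 was the factor of the 4 that was not called. Promoter windows of Irf7 and Irf9 held neither motif, and that of Stat2 held 1 ISRE core.

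Isg15, a ubiquitin-like protein that is joined to other proteins, had 4.56, 6.45 and 6.30 in C 8w, 2.56, 5.54 and 2.82 after SALI, and 8.08 and 8.78 in C 12w. C 12w was above all other samples, and the log2 fold change of the SALI group against it was -1.08 (SE 0.26, adjusted p = 0.014), with the call lost without 3e (adjusted p = 0.053). Usp18, which takes Isg15 off again, was the gene called higher, with a log2 fold change of 1.39 (SE 0.36, adjusted p = 0.018). Its call too was lost without 3e (adjusted p = 0.090). Trim25 and Trim30a, ubiquitin ligases of this response, were not called in any comparison with all samples. The FPKM of Trim25 ran only from 12.3 to 19.7 over the 8 samples.

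Ifit1, which grips viral RNA without the cap marks of the host, had 0.461, 0.677 and 0.750 in C 8w, 0.109, 0.540 and 0.229 after SALI, and 1.24 and 1.39 in C 12w. Both C 12w samples were above the other 6, and the log2 fold change against C 12w was -0.85 (SE 0.16, adjusted p = 0.0047). Ifit2 was lower as well, at 0.551 ± 0.289 (SD, n = 3) against 2.10 ± 1.41 (n = 2), with 3e at 3.09. Bst2 had its larger difference here, with a log2 fold change of -1.24 (SE 0.22, adjusted p = 0.0034). Cmpk2, the nucleotide kinase gene next to Rsad2, was lower, at 0.811 ± 0.428 (n = 3) against 2.28 ± 0.985 (n = 2). The calls of Ifit2 and Cmpk2 were lost without C096, C098 or 3e, that of Ifit2 also without 1a or 3a and that of Cmpk2 also without 2a. Without 3e the log2 fold change moved from -0.93 to -0.45 in Ifit2 (adjusted p = 0.17) and from -0.85 to -0.54 in Cmpk2 (adjusted p = 0.17). Ifi27 had the greatest difference of the 39 genes, with a log2 fold change of -2.90 (SE 0.34, adjusted p = 0.00046).

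Of the 7 GTPases 0 were called against C 12w by limma, and 1, Irgm1, had an unadjusted p under 0.05. Of the 4 Oas family genes past the floor 0 were called and 0 had such a p. The GTPases had log2 fold changes from -0.86 in Irgm1 to 0.60 in Igtp. The Oas family genes ran from -0.54 to -0.32. Of the 7 genes of mixed function, all but Ifi27 (Ifi35, Ifi44, Rtp4, Xaf1, Parp9 and Parp14) were not called in any of the 3 comparisons with all samples. Oas1a, with 57.6% of its windows shared with other genes, and Gbp6, with 70.7%, are uncertain for that reason. Of the 39 genes, 21 shared at most 2%, and among these alone 10 of 21 were lower against C 12w, 5 of 21 were lower against C 8w and 3 of 21 were higher at 12 weeks of MCLI than at 8. These counts are 47.6%, 23.8% and 14.3% of the 21, against 15%, 12.2% and 13.0% of all 7473 genes within the same limit in the same direction. Both genes called higher after SALI, Mx1 and Usp18, fell outside these 21. Without C097, 24 members were lower than in C 12w and 1 was higher, where 15.9% of all genes were lower and 15.1% higher, and all 14 calls were kept. Here too C097 was left out because it stood apart in these same genes. The counts describe C096 and C098 and are no test of the group.

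**Figure D5:**
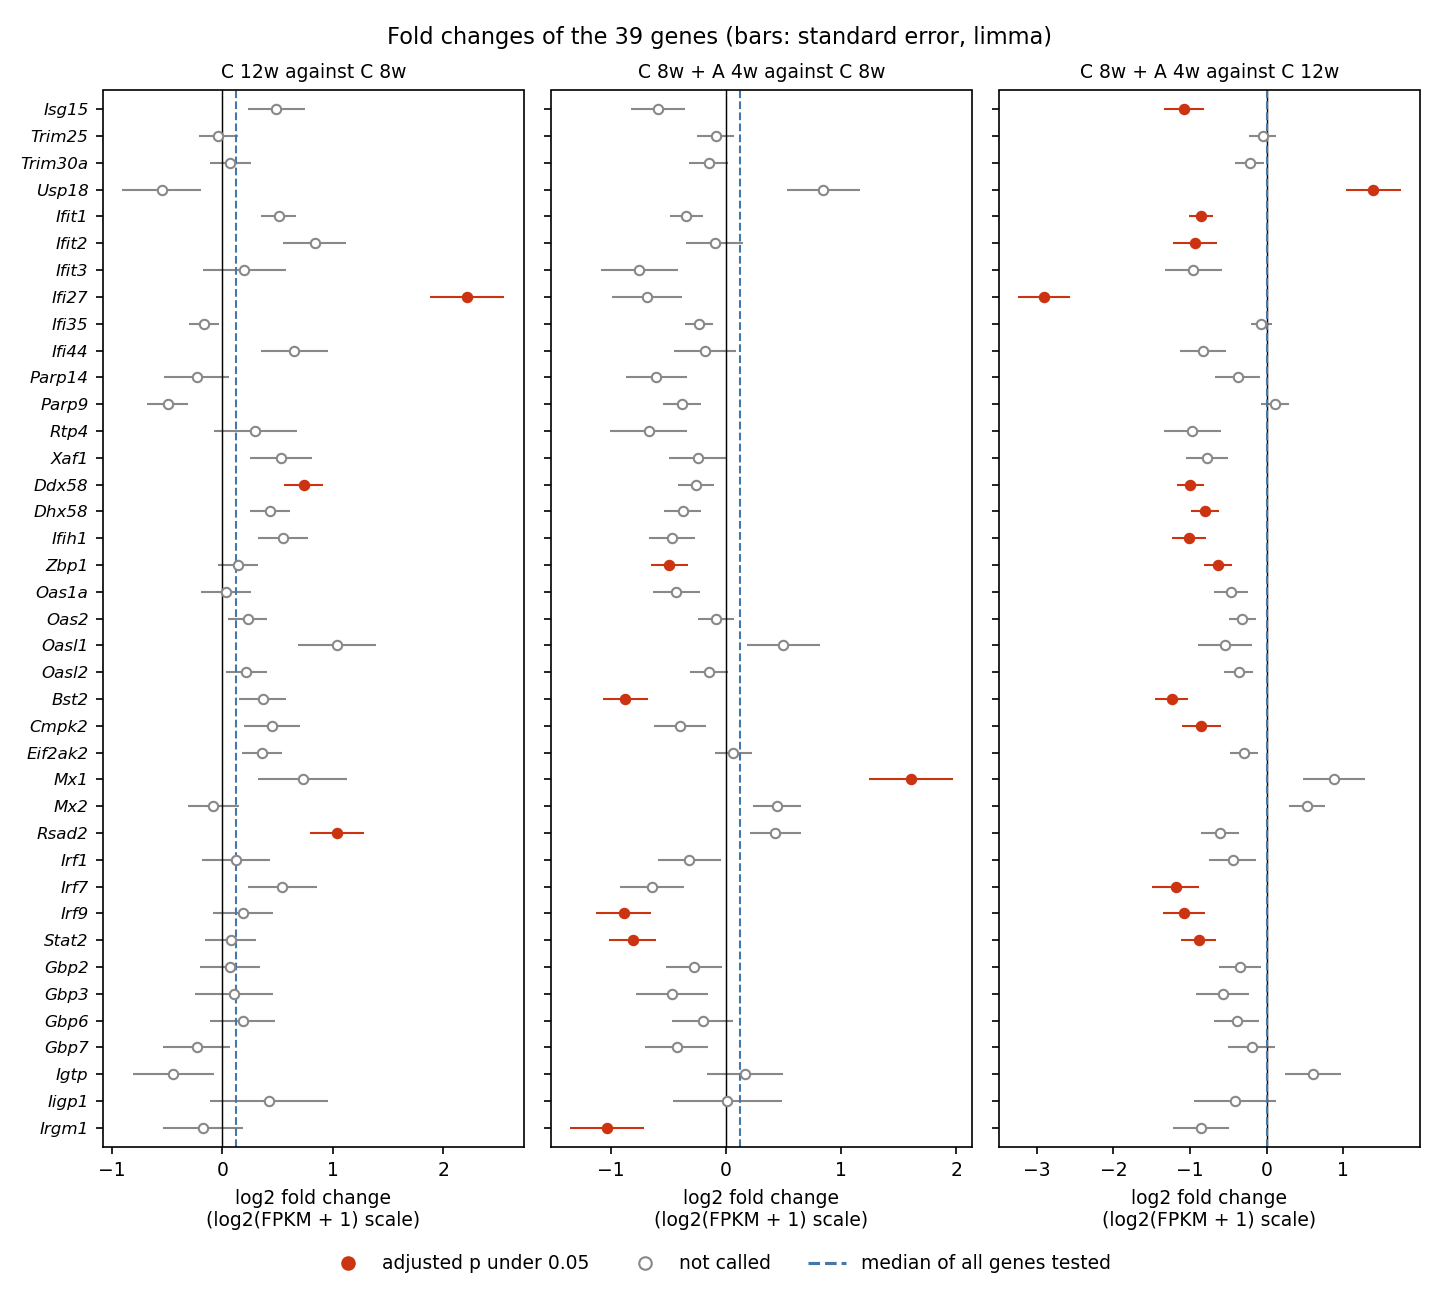
Points are log2 fold changes of the 39 genes on the log2(FPKM + 1) scale in each of the 3 comparisons, with bars of 1 standard error, filled red at an adjusted p under 0.05. The dashed line is the median of all genes tested. Most points of the right panel lie left of the line, Ifi27 lies farthest out in the left and right panels, and Mx1 and Usp18 lie to the right in both panels of C 8w + A 4w.

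The rest of the interferon pathway was read from lists of the same fit, which overlap by 1 gene. Of 16 receptor and signalling genes 15 passed the floor. The SALI group had 7 of them higher and 2 lower than C 8w, and 2 higher and 1 lower than C 12w. C 12w had 3 higher and 1 lower than C 8w. Beside the counts of these lists stand the shares of all genes tested, 24.2% higher and 12.6% lower after SALI than in C 8w, 17.2% and 15.4% against C 12w, and 12.3% and 6.34% for C 12w against C 8w. Ifngr1, the ligand-binding chain of the type II receptor, had 9.81, 8.61 and 11.2 in C 8w, 23.7, 21.3 and 17.4 after SALI, and 21 and 32.1 in C 12w. It was higher than in C 8w in both later groups, with a log2 fold change of 1.0 (SE 0.18, adjusted p = 0.0038) after SALI and 1.32 (SE 0.20, adjusted p = 0.0050) in C 12w. Tyk2 had 5.62, 5.07 and 5.20 in C 8w, 3.53, 3.44 and 3.38 after SALI, and 6.36 and 7.03 in C 12w, with no overlap between the 3 groups. It was lower after SALI than in C 8w (log2 fold change -0.50, SE 0.10, adjusted p = 0.0046). Ifnar1 and Jak1 of the same type I chain were higher after SALI than in C 8w, and Ifnar2 was not called. Their log2 fold changes were 0.57 for Ifnar1 (adjusted p = 0.014) and 0.34 for Jak1 (adjusted p = 0.041).

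Of 17 genes that lead to interferon production 13 passed the floor. The SALI group had 2 of them higher and 2 lower than C 8w, and 1 higher and 4 lower than C 12w. C 12w had 1 higher than C 8w, Ikbke. Irf3, the factor that starts the transcription of Ifnb1, had 10.9, 11.6 and 11.2 in C 8w, 5.24, 6.10 and 5.79 after SALI, and 10 and 10.8 in C 12w. All 3 SALI samples, C097 included, lay well below the other 5, with a log2 fold change of -0.87 against C 8w (SE 0.10, adjusted p = 0.00031). Irf8 was listed at 0 in all 8 samples. A further 45 interferon-stimulated genes, 41 of them past the floor, held 3 higher and 4 lower after SALI than in C 8w, and 1 higher and 8 lower than in C 12w. In C 12w 2 of them, Ly6e and Tor3a, were higher than in C 8w. These counts were under the shares of all genes given above, but for the 8 of 41 lower than in C 12w. The mean of the list by sample was -0.36 in C096, 0.28 in C097 and -0.21 in C098. C097 thus stood above both in this list as well.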

How the data were processed

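The authors deposited FPKM values of 8 samples in 1 table of 22504 Ensembl mouse genes, 1 column per sample. The submitters' processing notes name Bowtie 0.12.2 and the build mm8 without saying what they were used for, and the quantifier and annotation are not given in the sources used here. FPKM holds no counts, so depth and counting error are unknown and no interval was computed from them.

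The 41 members were fixed by symbol. The members, their roles and the other gene lists were chosen with earlier results of these data known. Values were compared as log2(FPKM + 1) over genes that came to an FPKM of 0.5 in 2 or more samples. R 4.3.3 and limma 3.58.1 (lmFit, eBayes with a trend) fitted the 3 groups to all 8 samples at once, with two-sided tests, Benjamini-Hochberg adjustment over 12125 genes and a threshold of 0.05. Fits were tested on simulated data. Values in every sample are given for 16 members set by role and for the called members among the 5 largest rises or falls of each comparison. Other genes named for their values, among them Ifih1, Dhx58, Ifit2, Cmpk2, Ifngr1, Tyk2 and Irf3, were chosen after these were seen. Sequence shared between genes was counted in Python 3.11.15 as the percentage of 50-base stretches of the GENCODE M21 transcripts of a gene that any other gene holds too. Promoters are RefSeq windows of GRCm38.p6 and were not used for expression. Mb21d1 and Mnda were matched as Cgas and Ifi211.

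Alternatives were a pseudocount of 0.1, other floors, median-ratio or quantile scaling, each sample left out, only the 2 groups compared, no trend, a fold change limit, genes with at most 2% shared sequence and a replicate block.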

Additional observations from a re-analysis of the deposited data

How the results depend on the processing

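For the members called with all samples, and for the medians of the members, the direction held in the alternatives that were run. Some members that were not called did turn. Without C097 the log2 fold changes of Igtp, Iigp1 and Eif2ak2 against C 8w went from positive to negative. The share of members called lower after SALI than in C 8w also changed its standing beside all genes. It was 12.8% against 12.6% with all samples, 2.56% against 8.66% without 2a, and 41.0% against 20.8% with quantile normalization. In C 12w against C 8w, where 3 members were called, the count lay between 1 and 6 when a sample was left out (7.3 to 35.6% of all genes called). With the 4 samples numbered 2 and 3 in both groups and the number as a replicate block it was 0, and it was also 0 for the same 4 samples without a block (3 of all 12125 genes called) and with the numbers crossed (2 of all genes called, against 16 with the block). The numbers do not mark shared animals, and deviations of same-numbered samples had a correlation of -0.17 across genes. In C 8w + A 4w against C 8w, where 6 were called, the count lay between 2 and 21 when a sample was left out (22.0 to 47.7% of all genes), and was 14 with median-ratio scaling (36.8%), 17 with quantile normalization (37.2%) and 2 when a log2 fold change of 1 or more was also required (10.4%). In C 8w + A 4w against C 12w, where 14 were called, the count lay between 8 and 25 when a sample was left out (24.5 to 41.5% of all genes), and was 8 with only the 2 groups compared (5 samples, 19.5%) and 7 with the fold change limit (11.5%). Where a C 12w sample was left out, the lone sample left was assumed to vary like the other groups. The causes were not tested. With 3, 3 and 2 samples and no counts, small changes of the many members under an FPKM of 1 cannot be told from counting error.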
